A study of Rattus norvegicus with 8 samples.

Results

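The genes described here are 9 immediate early genes of the rat: Fos, Fosb, Jun, Junb, Atf3, Egr1, Egr2, Nr4a1 and Arc. They were chosen by name, as the probes besides controls whose gene name on the array, with endings for predicted or mapped genes removed, was in this list. Each of the 9 genes had 1 probe, among 16308 probes that carried a gene symbol.

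Neurons of the hippocampal field CA3 were cut out by laser, and their RNA was measured on 8 single-colour Agilent arrays, 2 for each of 4 groups of Sprague-Dawley rats, male according to the methods and with no genetic change named. Naïve rats had no treatment, sham rats had a sham injury, and the remaining rats had a moderate fluid percussion injury, a pressure pulse of fluid on the brain. All brains were frozen at 24 hours, so that no earlier time was measured. In injured rats, neurons stained by Fluoro-Jade, a dye of degenerating neurons, are called dying here, and their unstained neighbours surviving. Each injured sample was a pool of about 600 neurons from several rats, so that an array shows no single animal. By the methods, surviving neurons were taken only next to dying ones, so that both kinds came from the same brains, while the labels do not tie pools of the same number to each other. The sham group is the control of both injured groups, and naïve against sham shows the surgery alone. Ages of the rats were not found in the labels or the methods used here.

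Immediate early genes are transcribed within minutes of a stimulus from transcription factors that are already present, such as CREB, SRF and the ternary complex factors, once calcium and kinase signals reach the nucleus. Most of them encode transcription factors: proteins of the Fos and Jun families and Atf3 pair through leucine zippers, Egr proteins bind GC-rich sites through zinc fingers, and Nr4a1 is an orphan nuclear receptor. In hippocampal neurons their RNA follows synaptic activity and seizures and mostly fades within hours, while Atf3 and Jun are also known from the lasting response of neurons to injury of the axon.

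Levels are given as the log2 of the processed signal of a probe over the median of all probes of its array, so that 0 is the level of the median probe. A spot counts as well above background where the scanner software marked it so. The median signal was 27.2 and 22.7 on the naïve arrays, 16.5 and 16.4 on the sham arrays, 52.2 and 48.2 on the surviving arrays and 19.2 and 52.6 on the dying arrays, and 20193 to 29347 probes per array were well above background. Naïve and sham arrays lay on 1 slide and surviving and dying arrays on another. By the file headers, naïve and sham arrays were also scanned on 1 date and surviving and dying arrays on another. In the comparisons with sham, an effect of slide or scan date would therefore look like an effect of injury. Values of all 9 genes on all arrays are drawn by group in the plot of members by array. Where groups are said to stand without overlap, this describes the values of that gene only. The share of all probes that separate in the same way was not counted.

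**Figure D1:**
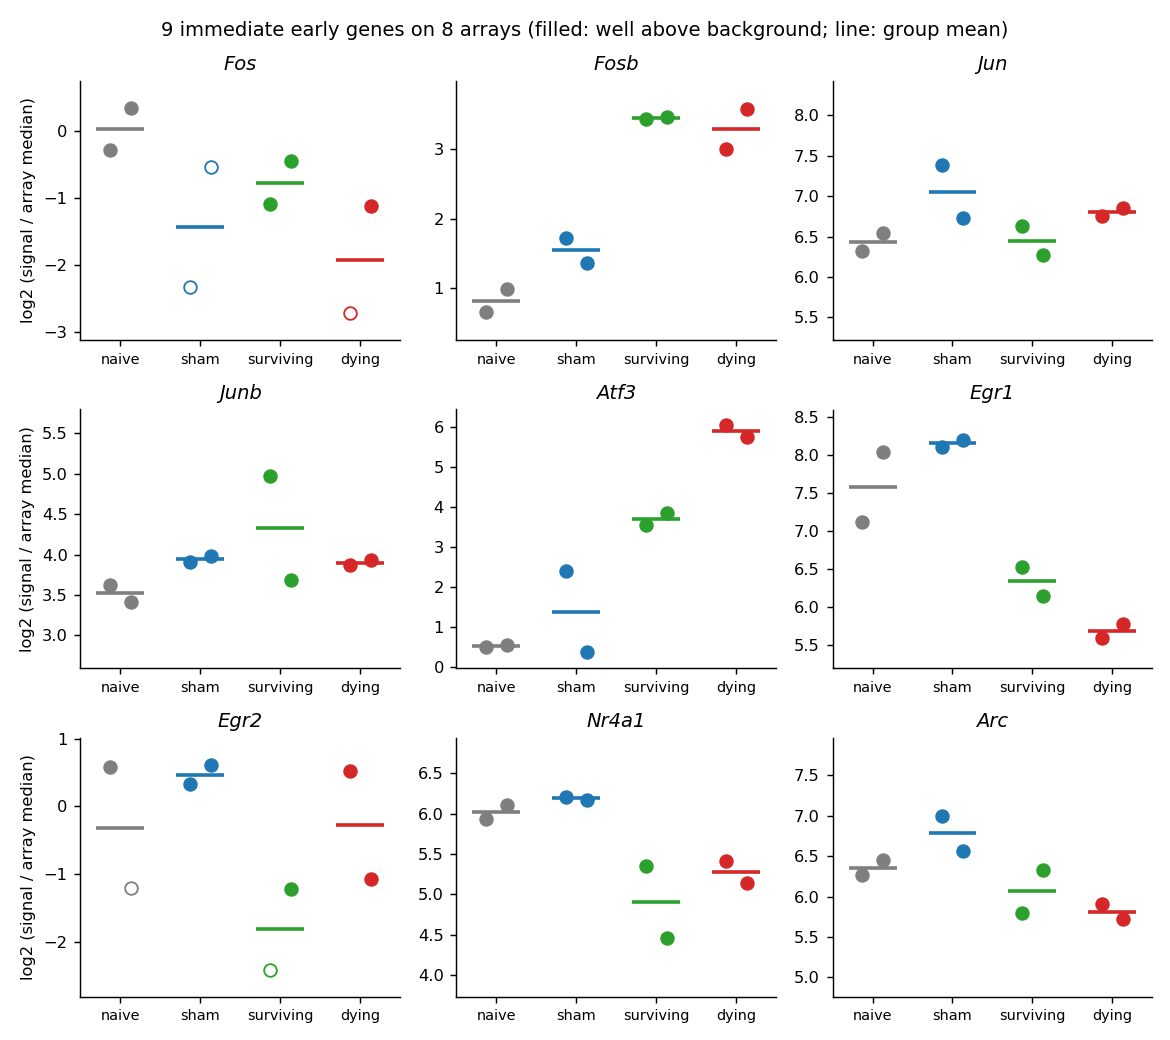
The log2 level over the array median (y axis) of each of the 9 genes on the 2 naïve, 2 sham, 2 surviving and 2 dying arrays (x axis), with open points where the probe was not well above background. Atf3 reached 6.05 and 5.77 in dying neurons, and Egr1 was at 8.10 and 8.20 in sham neurons.

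Before the comparisons, the arrays were set against each other and against the label of the tissue. Across 15254 probes, which are not independent replicates, Pearson's r between the arrays of a group was 0.966 in naïve, 0.985 in sham, 0.976 in surviving and 0.892 in dying neurons. The dying pair stood apart from the others, with a standard deviation of 1.21 of the log2 difference between its arrays against 0.49 to 0.69 in the other groups. Dying replicate 2 had an r of 0.934 and 0.941 with the surviving arrays, higher than with dying replicate 1.

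All 10 pyramidal neuron markers on the arrays, of 12 in the list, were well above background on 7 of 8 arrays, and on dying replicate 1 all but Grik4, a kainate receptor subunit typical of CA3. Their summed signal, in multiples of the array median, was 6172 and 8898 on the naïve arrays, 11712 and 10199 on the sham arrays, 6615 and 6268 on the surviving arrays and 3164 and 3606 on the dying arrays. The probe of Nrgn, a calmodulin-binding protein of dendrites, had the highest signal of them on every array, though signals of different probes do not rank amounts of RNA. In dying neurons 3 of 10 fell against sham and 0 rose, beside 27.2% and 13.6% of all probes tested, and the median was −2.03 beside −0.46. Much of this rests on dying replicate 1, without which the list median was −0.88 while the median over all probes moved by −0.27. Of the 3, Snap25, a protein of vesicle release, was at −3.83, with an adjusted p of 0.00678. Only 1 probe was matched to Snap25, and for surviving minus dying it was at 1.16, with an adjusted p of 0.391. The paper lists the gene as higher in dying than in surviving neurons. Fewer cells of a type and less RNA per cell cannot be told apart in such pools.

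Proteins of the Fos family form AP-1 dimers with those of the Jun family. Fos, the partner of Jun in the classic AP-1 dimer, was at −0.28 and 0.34 on the naïve arrays, −2.32 and −0.54 on the sham arrays, −1.09 and −0.45 on the surviving arrays and −2.71 and −1.12 on the dying arrays. It was thus near or under the median probe everywhere, and well above background on both naïve arrays, both surviving arrays and dying replicate 2. Naïve arrays were above surviving arrays without overlap, while the places of sham and dying neurons in the order are not resolved, since their dim spots lay under background. Where neither array of a group had the probe well above background, as for Fos in sham neurons, an approximate lower bound of the fold was set. It took the smallest signal that any probe marked well above background had on that array, or the probe's own signal where that was higher. A probe can lie over that smallest signal and still lack the mark. On sham replicate 1 the smallest was −0.30, while Mef2a, without the mark, was at 0.06. The bound is thus no strict limit, and "at least" is meant in this sense here and below. By this bound the level of Fos was at least 1.19-fold higher in naïve than in sham neurons, with an adjusted p of 0.930 in the fit, but without naïve replicate 2 it was 0.960 and gives no direction. Against the injured groups the bound gives no fold. Between surviving and dying neurons it differed by 1.14 as measured (SE 0.77), with an adjusted p of 0.430, and by −0.10 with the normexp background correction. Neither size is exact, since the spot of dying replicate 1 is part of both.

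Fosb, a second Fos protein, whose short splice form ΔFosB lasts for days after repeated stimuli, showed another pattern. Its level was 0.66 and 0.98 on the naïve arrays, 1.73 and 1.36 on the sham arrays, 3.44 and 3.47 on the surviving arrays and 3.01 and 3.58 on the dying arrays. All 4 arrays of injured neurons were above all 4 of uninjured rats, while surviving and dying neurons overlapped. In order the groups stood at surviving, dying, sham, naïve, with a gap and no overlap between dying and sham and between sham and naïve. The probe does not show which splice form was present.

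Fosb rose in surviving neurons against sham by 1.91 (SE 0.47, 2 arrays per group), 3.76-fold, with an adjusted p of 0.0332. In dying neurons it rose by 1.75 (SE 0.47), 3.36-fold, with an adjusted p of 0.0213. Both comparisons use the same sham arrays, and the difference kept its direction under every scaling. The first call was lost with the normexp correction (adjusted p of 0.405), with the replicate number as a block (0.0637), and without sham replicate 1 (0.177), sham replicate 2 (0.186), surviving replicate 1 (0.139) or surviving replicate 2 (0.175). The call in dying neurons was lost with normexp (0.493), in a fit of only the groups compared (0.0557), and without sham replicate 1 (0.101) or sham replicate 2 (0.132). Between surviving and dying neurons the difference was 0.16 (SE 0.47), with an adjusted p of 0.879, and changed sign to −0.18 when arrays were scaled by probes with RefSeq accessions and to −0.13 without dying replicate 1.

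The sequence before the start of Fosb is given as that of a member that passed the test in both injured groups. It is the 250 bases before the gene's start at chr1:88089185-88089434, minus strand, build GRCr8, from RefSeq, 5′ to 3′, with capitals for a match to the TATA box letters TATAAA on the opposite strand, 180 to 175 bases before the start.
Fosb: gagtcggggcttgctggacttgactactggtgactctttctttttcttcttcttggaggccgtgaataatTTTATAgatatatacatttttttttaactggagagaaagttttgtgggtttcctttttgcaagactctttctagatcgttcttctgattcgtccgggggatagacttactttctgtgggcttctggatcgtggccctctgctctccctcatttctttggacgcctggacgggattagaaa
Of the 9 genes, 5 were matched by symbol to a promoter entry (Fosb, Junb, Egr1, Egr2 and Nr4a1). Fos, Jun, Arc and Atf3 had no entry. The letters searched, on both strands, were TGACGTCA (the cyclic AMP response element, CRE), TGACG (the CRE core, part of each full match), TGANTCA (the AP-1 site), GCGNGGGCG (the Egr site), TATAAA and the CArG box of SRF. Over all 33469 promoters of this length, 1.59% held TGACGTCA, 18.2% TGACG, 6.34% TGANTCA, 4.29% GCGNGGGCG, 12.9% TATAAA and 1.50% a CArG box. The Fosb window held 1 match, the TATA letters.

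The Jun family supplies the other side of AP-1. Jun, the substrate of the JNK kinases, was at 6.32 and 6.55 on the naïve arrays, 7.38 and 6.72 on the sham arrays, 6.63 and 6.27 on the surviving arrays and 6.75 and 6.85 on the dying arrays. Every array was thus far above the median probe, and sham replicate 1 was the highest. The order was sham, dying, surviving, naïve, and only dying and surviving, among neighbours, did not overlap. Jun did not pass the test in any of the 4 comparisons, with −0.61 (adjusted p of 0.379) for surviving minus sham and −0.25 (0.679) for dying minus sham. The first of these turned to 0.18 with scaling to the 75th percentile, 0.31 with quantile normalization and 0.45 with normexp. The second turned to 0.48, to 0.98 with an adjusted p of 0.0424, and to 0.14 with RefSeq scaling, in the order 75th percentile, quantile and RefSeq, and to 0.078 without sham replicate 1. Surviving minus dying was −0.36 (adjusted p of 0.704), or 1.13 with normexp.

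Junb, a Jun protein that often restrains Jun in AP-1 dimers, was at 3.63 and 3.42 on the naïve arrays, 3.91 and 3.98 on the sham arrays, 4.97 and 3.68 on the surviving arrays and 3.87 and 3.94 on the dying arrays. Surviving replicate 1 alone was high, and surviving replicate 2 was lower than every sham and dying array. In order of means the groups were surviving, sham, dying and naïve, with overlap except between dying and naïve. Surviving minus dying was 0.42 (SE 0.54), with an adjusted p of 0.693, and −0.22 without surviving replicate 1. Against sham the differences were 0.38 (adjusted p of 0.639) in surviving neurons, or −0.26 without surviving replicate 1, and −0.046 (0.950) in dying neurons, or 0.68, 0.99 and 0.34 with 75th percentile, quantile and RefSeq scaling. The 250 bases before Junb held 1 match to TGACG and 1 to TATAAA, the latter 49 to 44 bases before the start.

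Jun, Egr1 and Arc were each spotted 10 times per array, which shows how far a value depends on the place of the spot. The standard deviation between the 10 log2 values was 0.045 to 0.16 for these genes on uninjured arrays. It was larger on some arrays of injured neurons, up to 0.33 for Jun and 0.27 for Arc on dying replicate 1 and 0.52 for Egr1 on surviving replicate 2, where the spots ranged from 4.65 to 6.42. On the sham arrays the lowest of the Egr1 spots was 7.97, above the highest spot of any injured array, which was 6.70 on surviving replicate 1.

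**Figure D2:**
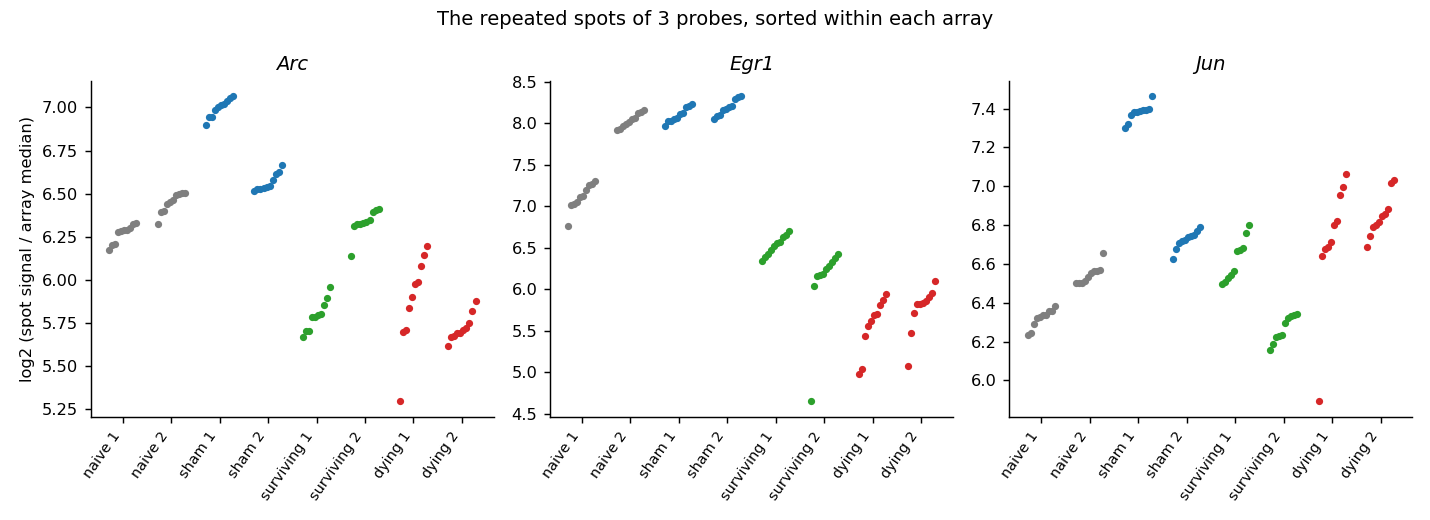
The log2 level over the array median (y axis) of each of the 10 spots of Jun, Egr1 and Arc (points, sorted within each array) on the 8 arrays (x axis). The Egr1 spots of surviving replicate 2 spread from 4.65 to 6.42.

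Atf3, a stress-induced factor of the ATF family that pairs with Jun, differed most from sham of the 9 genes. It was at 0.50 and 0.57 on the naïve arrays, 2.41 and 0.37 on the sham arrays, 3.55 and 3.87 on the surviving arrays and 6.05 and 5.77 on the dying arrays. Dying arrays were above surviving arrays, and these above sham and naïve arrays, without overlap. Sham and naïve arrays overlapped, since sham replicate 1 was high and sham replicate 2 was the lowest of all 8. All 8 values were well above background.

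Atf3 rose in dying neurons against sham by 4.52 (SE 0.67, 95% confidence interval 2.97 to 6.07), 22.9-fold, with an adjusted p of 0.00378. The direction held under every scaling and the call in 20 of 21 alternatives, the exception being normexp, with 2.89 and an adjusted p of 0.416. Without sham replicate 1 the difference was 5.53 (adjusted p of 0.0169), and without sham replicate 2 it was 3.50 (0.0282). In surviving neurons it was 2.32 (SE 0.67), 4.98-fold, with an adjusted p of 0.0523, just over the threshold of 0.05. It was called in 6 of 21 alternatives, among them 75th percentile scaling (0.0199) and quantile normalization (0.0296). With each array left out in turn, this difference ran from 1.30 to 3.33.

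Between the injured groups, Atf3 was 4.60-fold lower in surviving than in dying neurons, a log2 difference of −2.20 (SE 0.67, 95% confidence interval −3.75 to −0.65). Both dying arrays were higher than both surviving arrays, and the difference kept its sign in every alternative, from −2.54 to −0.60. The unadjusted p was 0.0114 and the adjusted p 0.151, so that it did not pass the test. By the size of the difference it ranked 2345 among 27393 probes tested.

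Several genes are known to accompany Atf3 and Jun in injured neurons, and a list of 19 of these was read in the same arrays, 18 of them present. In dying neurons against sham 3 of 16 tested rose and 5 fell, beside 13.6% and 27.2% of all probes tested. The list median was −0.83 beside −0.46, or −1.28 without dying replicate 1 and −0.049 without dying replicate 2. The median over all probes then moved by −0.27 and 0.27. In surviving neurons 2 rose and 0 fell, beside 5.78% and 10.5%. There the list median was −0.54 beside −0.43, or −0.062 without sham replicate 2 and −0.043 without surviving replicate 2. Gal, the neuropeptide galanin, was at 1.85 and 1.81 on the naïve arrays, 2.18 and 1.62 on the sham arrays, 5.72 and 5.73 on the surviving arrays and 7.65 and 7.62 on the dying arrays. The groups stood in the same order as for Atf3, with injured arrays far above uninjured ones. Gal rose by 5.74 (SE 0.45) in dying neurons, with an adjusted p of 0.000723, and by 3.83 (SE 0.45) in surviving neurons, with 0.00376, the latter lost without sham replicate 2 (0.0502).

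Hspb1, a small heat shock protein, was at 2.04 and 3.09 on the naïve arrays, 4.75 and 5.11 on the sham arrays, 7.79 and 7.85 on the surviving arrays and 8.0 and 8.76 on the dying arrays. It rose by 2.89 in surviving neurons (adjusted p of 0.0168) and by 3.45 in dying neurons (0.00434). Cd44, a receptor for hyaluronan that is also found on microglia and leukocytes, was at 1.52 and 1.42 on the sham arrays, 4.29 and 4.34 on the surviving arrays and 5.81 and 5.46 on the dying arrays. Dying arrays were the highest for both genes. Cd44 rose by 4.16 in dying neurons, with an adjusted p of 0.00922. Stmn2, a stathmin of growing axons and 1 of the 5 counted as lower in dying neurons, was at 11.43 and 10.96 on the sham arrays and 8.32 on dying replicate 1. The spots on dying replicate 2 and both surviving arrays were non-uniform, so that its call compares a single dying array, with the spread taken from other groups, and is not used. The other 4 were Asns, asparagine synthetase, which fell by 2.49 (adjusted p of 0.0137), Gap43, a protein of growth cones, which fell by 2.04 (0.0106), Chac1, which fell by 1.55 (0.0351), and Ddit3, the stress factor CHOP, which fell by 1.53 (0.0305). With each sham or dying array left out their smallest differences were −1.90, −1.86, −1.39 and −1.38.

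Between surviving and dying neurons 0 of 16 genes of this list passed the test of limma, and the median was 0.26, or −0.11 without dying replicate 1, beside 0.14 for all probes tested. Asns and Stmn4 had the highest differences, 1.80 (adjusted p of 0.160) and 1.62 (0.337), the latter 0.56 without dying replicate 1. Vip and Gal had the lowest, −2.12 (0.215), or −0.97 without dying replicate 1, and −1.91 (0.128). Against naïve, sham neurons had 0 of 16 past the threshold and a median of 0.51 beside 0.37. Leaving out an array changed some of these calls: those of Hspb1 in surviving neurons were lost without sham replicate 1 or 2 or surviving replicate 1 or 2 (adjusted p up to 0.145), and that of Cd44 in dying neurons without sham replicate 1 or 2 (up to 0.0611).

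Microglial transcripts were read beside Atf3. All 12 genes of a list for microglia and macrophages were on the arrays, and 7 of 10 tested rose in dying neurons against sham while 0 fell, with a median of 2.20, beside 13.6% of all probes tested higher and 27.2% lower. Their summed signal, in multiples of the array median, was 138 and 274 on the naïve arrays, 286 and 257 on the sham arrays, 374 and 383 on the surviving arrays and 2042 and 1169 on the dying arrays. The highest signal among their probes was that of C1qa on the naïve and sham arrays and surviving replicate 1, and that of C1qb, another chain of complement C1q, on surviving replicate 2 and the dying arrays. Not all went up: Aif1, the marker Iba1, was at 5.0 and 5.05 on the sham arrays, 3.63 and 3.25 on the surviving arrays and 5.14 and 4.64 on the dying arrays, all well above background. Neither Aif1 nor Csf1r passed the test in surviving (adjusted p of 0.0673 and 0.537) or in dying neurons (0.838 and 0.657). Of the other defining markers, Itgam, Cx3cr1 and Ptprc were not well above background on any uninjured array, Cx3cr1 and Ptprc not on dying replicate 1, and Ptprc not on dying replicate 2 or surviving replicate 1. Their part in the Atf3 result was not tested.

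Tyrobp, a signalling adaptor of microglia, rose by 3.61 in dying neurons (SE 0.56, adjusted p of 0.00418), Cd68, a lysosomal protein of phagocytes, by 3.61 (SE 0.57, 0.00445) and Cd14, a receptor for bacterial lipopolysaccharide, by 2.74 (0.0189). C1qb rose from 6.34 and 6.06 on the sham arrays to 9.82 and 8.78 on the dying arrays (0.00703). In surviving neurons 1 of 11 tested rose, Lyz2, a lysozyme, by 1.87 (0.0430), and 0 fell, beside 5.78% and 10.5% of all probes. The list median was 0.73 beside −0.43, or 0.42 without surviving replicate 1. Surviving minus dying had 0 of 11 past the threshold and a median of −1.45, with Cx3cr1, not well above background on dying replicate 1, at 0.90 (adjusted p of 0.601), or −0.51 without that array. Genes well above background on every injured array ran from Lyz2 at −0.14 and Csf1r at −0.20, which turned to 1.11 and 0.21 with normexp and to 0.12 and 0.14 without dying replicate 2, to Tyrobp at −2.27 and C1qb at −2.50. Sham against naïve had 0 of 9 past the threshold. The call of C1qb was lost without sham replicate 1 or 2 (up to 0.0543), that of Cd14 without sham replicate 2 or dying replicate 2 (up to 0.123), and that of Lyz2 without either sham or either surviving array (up to 0.216).

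**Figure D3:**
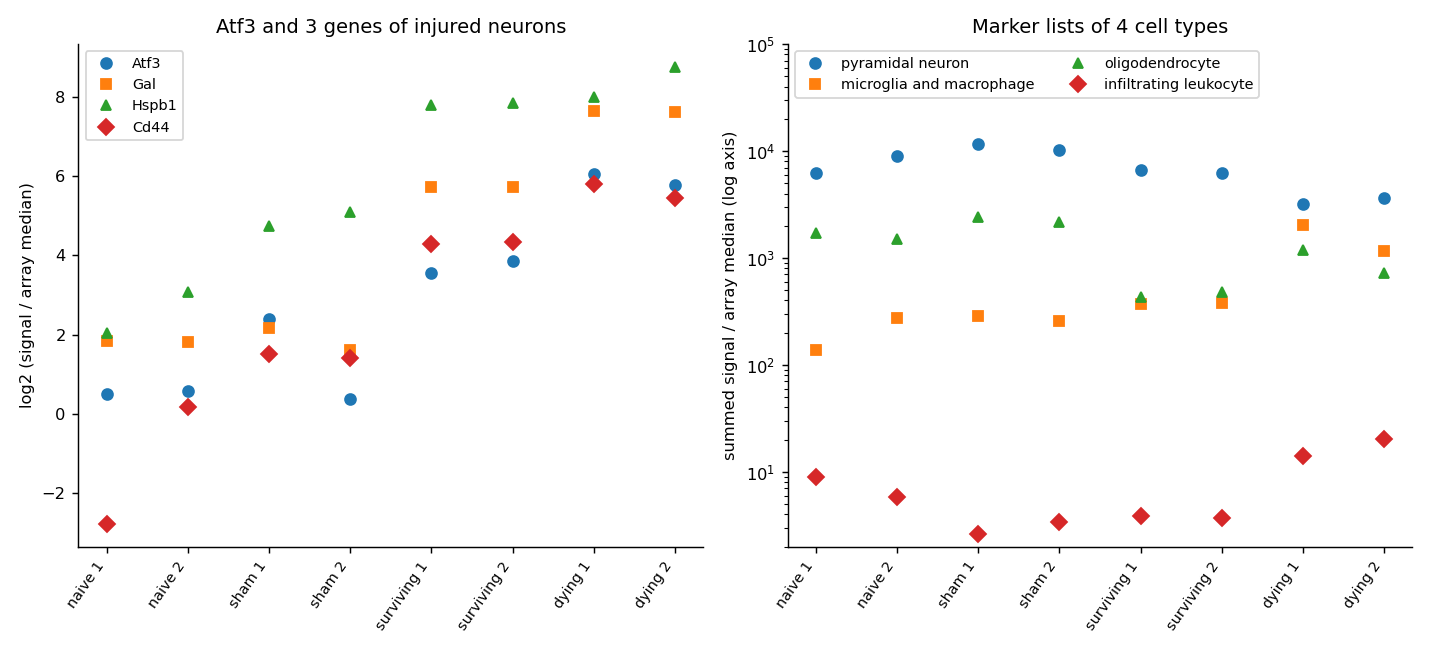
On the left, the log2 level over the array median (y axis) of Atf3, Gal, Hspb1 and Cd44 on the 8 arrays (x axis). On the right, the summed signal of 4 marker lists in multiples of the array median (y axis, log scale) on the same arrays. Gal was at 7.65 and 7.62 and Atf3 at 6.05 and 5.77 on the dying arrays.

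The members also include Egr1 and Egr2 of the Egr family. Egr1, a zinc finger factor that follows synaptic activity and is used as a sign of it, was at 7.12 and 8.04 on the naïve arrays, 8.10 and 8.20 on the sham arrays, 6.53 and 6.15 on the surviving arrays and 5.60 and 5.78 on the dying arrays. All 4 arrays of uninjured rats were above all 4 of injured neurons. In order the groups were sham, naïve, surviving and dying, and no neighbours overlapped, though sham replicate 1 and naïve replicate 2 were close. All arrays were far above the median probe.

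Egr1 fell by 2.46 in dying neurons against sham (SE 0.50), 5.50-fold, with an adjusted p of 0.00858. In surviving neurons it fell by 1.81 (SE 0.50), 3.51-fold, with an adjusted p of 0.0450. The direction held under every scaling and alternative, with −1.26 as the smallest difference for dying and −0.70 for surviving neurons. The call in dying neurons was made in 18 of 21 alternatives and was lost with normexp (0.432) and without sham replicate 1 (0.0686) or sham replicate 2 (0.0598). That in surviving neurons was made in 9 of 21. It was lost, among others, with scaling to the 75th percentile (0.114), quantile normalization (0.0973) and RefSeq scaling (0.0526), and without sham replicate 1 (0.227), sham replicate 2 (0.197), surviving replicate 1 (0.139) or surviving replicate 2 (0.236). In surviving minus dying Egr1 was at 0.65 (SE 0.50), with an adjusted p of 0.490.

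Egr2, a relative of Egr1 best known from hindbrain and myelin development, was at 0.58 and −1.21 on the naïve arrays, 0.32 and 0.61 on the sham arrays, −2.42 and −1.22 on the surviving arrays and 0.53 and −1.08 on the dying arrays. The spots on naïve replicate 2 and surviving replicate 1 were not well above background. The order of sham, dying, naïve and surviving had overlap between neighbours except naïve and surviving, and there the gap rests on the dim spot of naïve replicate 2. As measured, surviving minus sham was −2.29 (SE 0.80), with an adjusted p of 0.0845, and passed in a fit of only the groups compared (0.0208) and with array weights (0.0144). Surviving minus dying was −1.54 (SE 0.80), with an adjusted p of 0.313, and dying minus sham −0.74, with 0.466, or 0.062 without dying replicate 2. Differences from surviving neurons are not exact sizes here, since they rest in part on the dim spot of surviving replicate 1.

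Both Egr genes have CArG boxes close to their starts, and their sequences are given to show where these lie. The 250 bases before the start are at chr18:26736828-26737077, plus strand, for Egr1 and at chr20:21054442-21054691, minus strand, for Egr2, in GRCr8. Capitals mark CArG boxes and matches to TGACG, here all on the opposite strand as CGTCA.
Egr1: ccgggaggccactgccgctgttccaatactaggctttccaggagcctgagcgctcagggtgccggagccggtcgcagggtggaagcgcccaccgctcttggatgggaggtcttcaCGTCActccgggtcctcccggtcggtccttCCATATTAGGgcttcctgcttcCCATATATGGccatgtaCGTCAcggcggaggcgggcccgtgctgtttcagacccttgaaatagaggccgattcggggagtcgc
Egr2: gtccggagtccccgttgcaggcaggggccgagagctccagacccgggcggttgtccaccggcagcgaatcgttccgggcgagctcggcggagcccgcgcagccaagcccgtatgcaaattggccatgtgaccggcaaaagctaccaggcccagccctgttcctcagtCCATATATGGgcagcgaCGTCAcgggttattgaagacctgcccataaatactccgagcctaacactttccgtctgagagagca
Egr1 held 2 CArG boxes, 105 to 96 and 83 to 74 bases before the start, and 2 matches to TGACG. Egr2 held 1 CArG box, also 83 to 74 bases before its start, and 1 match to TGACG, 66 to 62 bases before it, where Egr1 had its second. CArG boxes were found in 2 of the 5 members with an entry, full CRE letters and AP-1 letters in 0 of 5. A match is a description of letters and shows no binding.

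Nr4a1, the orphan receptor also called Nur77, was at 5.94 and 6.10 on the naïve arrays, 6.21 and 6.17 on the sham arrays, 5.35 and 4.46 on the surviving arrays and 5.41 and 5.14 on the dying arrays. Again all uninjured arrays were above all injured ones, with surviving replicate 2 the lowest. Sham, naïve and dying neurons followed each other without overlap, and dying and surviving neurons overlapped. Nr4a1 did not pass the test: surviving minus sham was −1.28 (SE 0.49), with an adjusted p of 0.103, and dying minus sham −0.91 (SE 0.49), with 0.158. The first passed with array weights (0.0255) and the second turned to 0.34 with quantile normalization. Surviving minus dying was −0.37 (adjusted p of 0.705), and 1.26 with normexp or 0.077 without surviving replicate 2.

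The window before Nr4a1, chr7:134259888-134260137, plus strand, GRCr8, is given for its matches to TGACG, in capitals as CGTCA, with the Egr letters between them on the opposite strand.
Nr4a1: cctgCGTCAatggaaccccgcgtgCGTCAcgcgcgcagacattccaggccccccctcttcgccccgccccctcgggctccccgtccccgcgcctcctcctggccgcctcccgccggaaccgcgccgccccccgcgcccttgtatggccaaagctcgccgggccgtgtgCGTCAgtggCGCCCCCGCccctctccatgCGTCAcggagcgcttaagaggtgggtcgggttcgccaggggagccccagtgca
It held 4 of the 8 matches to TGACG found in the members and the single match to GCGNGGGCG, 73 to 65 bases before the start.

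Arc, which encodes a protein of dendrites and spines and is no transcription factor, was at 6.27 and 6.45 on the naïve arrays, 7.0 and 6.57 on the sham arrays, 5.80 and 6.33 on the surviving arrays and 5.90 and 5.72 on the dying arrays. Sham arrays were the highest and did not overlap with any other group, while surviving overlapped with its neighbours in the order sham, naïve, surviving, dying. Arc did not pass the test, with −0.72 (SE 0.46, adjusted p of 0.296) for surviving minus sham and −0.97 (SE 0.46, 0.122) for dying minus sham. With scaling to the 75th percentile, quantile normalization and normexp the first was 0.065, 0.23 and 0.40, and with quantile normalization the second was 0.26. For surviving minus dying Arc was at 0.25 (adjusted p of 0.794), and at −0.034 with quantile normalization, −0.083 with RefSeq scaling and −0.015 without surviving replicate 2.

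Side by side, the comparisons with sham moved 2 members in surviving and 3 in dying neurons. Against sham, 2 of 9 members passed the test in surviving neurons, Fosb higher and Egr1 lower, beside 16.3% of 26909 probes tested, 5.78% higher and 10.5% lower. In dying neurons 3 of 8 members passed, Fosb and Atf3 higher and Egr1 lower, beside 40.8% of 25628 probes tested, 13.6% higher and 27.2% lower. Fos was not tested there, since it was not well above background on both arrays of either group. The median difference of the members tested was −0.61 in surviving neurons, beside −0.43 for all probes tested. In dying neurons the median over all 9 was the value of Fos, −0.48. It rests in part on spots under background, so it is not set beside that of all probes. Members past the threshold were thus a share near that of all probes.

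The share of probes called higher depends on the scaling and on the filter. In surviving neurons 1555 probes rose and 2833 fell, but 3861 and 1304 with scaling to the 75th percentile and 2374 and 1658 with quantile normalization. In dying neurons 3481 rose and 6975 fell, but 6666 and 4407, 5201 and 4077, and 4530 and 5256 with 75th percentile, quantile and RefSeq scaling. With only probes well above background on all 4 arrays compared, 100 rose and 1681 fell in surviving neurons and 672 rose and 4864 fell in dying neurons. Scaling to the 75th percentile moved the median difference by 0.78 in surviving minus sham, 0.73 in dying minus sham and −0.29 in sham minus naïve. Quantile normalization moved it by 0.63, 0.56 and −0.33, and RefSeq scaling by 0.39 in dying minus sham, −0.34 in surviving minus dying and −0.16 in sham minus naïve. With normexp it moved by 0.85 in surviving minus sham, 0.30 in surviving minus dying and 0.13 in dying minus sham, and limma called 0 probes.

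With 2 arrays per group, leaving out an array mostly cut the number of calls in its comparisons with sham. In surviving minus sham the 4388 probes called became 190 without sham replicate 1, 398 without sham replicate 2, 290 without surviving replicate 1 and 361 without surviving replicate 2, with 0 members in each case, and 7705 without either dying array. In dying minus sham the 10456 became 1857 and 3792 without sham replicate 1 and 2, with Atf3 as the only member called in both, 7589 without dying replicate 1 and 12794 without dying replicate 2. With each array left out in turn, surviving minus sham ran from 1.73 to 2.09 for Fosb and from −2.0 to −1.62 for Egr1.

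**Figure D4:**
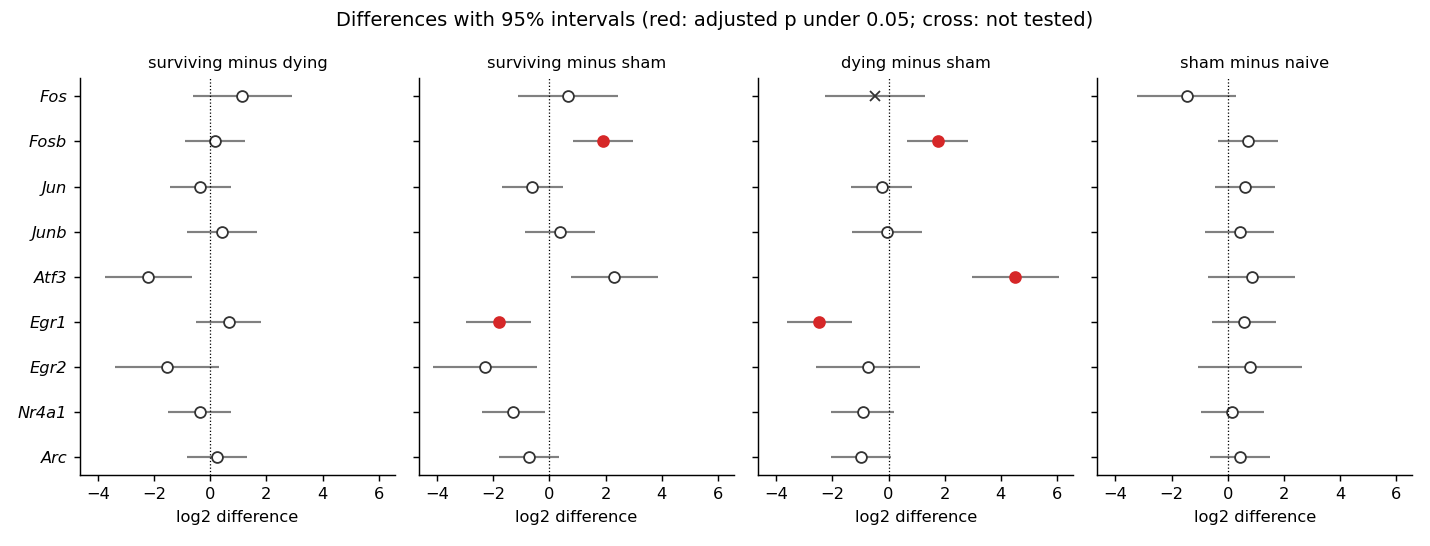
The log2 difference (x axis) of each of the 9 genes (y axis) in the 4 comparisons, with 95% confidence intervals of the limma fit, red points where the adjusted p was under 0.05 and a cross where the gene was not tested. In dying against sham neurons Atf3 was at 4.52 and Egr1 at −2.46, directions that held under every scaling.

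Between surviving and dying neurons, the comparison made within 1 slide, 0 of 9 members passed the test of limma, beside 0% of 27393 probes tested. At an unadjusted p under 0.05 there were 5640 probes, 20.6%, and 1 member, Atf3. The members' median was 0.16 beside 0.14 for all probes tested. The count of 0 at the adjusted threshold did not hold over all probes without dying replicate 2. In that fit, which leaves a single dying array, probes passed in both directions, but no member did.

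The surgery alone, sham against naïve, gave 0 of 9 members past the threshold of limma, beside 0% of 20679 probes tested, and 789 probes, 3.82%, with 0 members at an unadjusted p under 0.05. For Fos, not well above background on either sham array, only the bound given above holds. Atf3 was at 0.86, or −0.16 without sham replicate 1, and Egr1 at 0.57. Those of Fosb, Jun, Junb and Egr2 were 0.72, 0.62, 0.42 and 0.78, with Egr2 at −0.11 without naïve replicate 2. Arc and Nr4a1 were at 0.42 and 0.17, but at −0.0039 and −0.27 with quantile normalization, and Nr4a1 at −0.12 with scaling to the 75th percentile. The median of the members was 0.57 beside 0.37 for all probes.

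A list of 45 other immediate early and rapid response genes, 44 on the arrays, extends the picture. In surviving neurons against sham 2 of 41 tested rose and 1 fell, beside 5.78% and 10.5% of all probes. The list median was −0.32 beside −0.43, or −0.11 without surviving replicate 2. In dying neurons 4 of 40 rose and 7 fell, beside 13.6% and 27.2% of all probes. There the list median was −0.087 beside −0.46. It was 0.082 without sham replicate 1, −0.24 without sham replicate 2, −0.42 without dying replicate 1 and −0.018 without dying replicate 2. Fosl2, a late-acting Fos relative, was not well above background on any uninjured array and was at 1.41 and 1.05 on the surviving and 1.63 and 1.10 on the dying arrays. By the bound described for Fos it was at least 2.74-fold higher in surviving than in sham neurons and at least 3.01-fold higher in dying neurons, or 2.41 and 2.50 as the smallest with an array left out. For Egr3, an activity-induced relative of Egr1 and Egr2, the bound was 1.46-fold in surviving and 1.37-fold in dying neurons, or 1.28 without surviving replicate 2 and 1.04 without dying replicate 1. Both genes are counted above as higher in both groups, but they entered the test through the injured arrays alone and their p-values rest on sham values under background, so that only the bounds are given. The other 2 counted as higher in dying neurons, well above background on all arrays, were Gadd45g, a stress sensor, which rose by 2.61 (adjusted p of 0.00624), and Cebpd, a factor of inflammation, which rose by 2.31 (0.00805). With each sham or dying array left out these were 2.42 and 2.24 at the smallest.

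Klf10, a Krüppel-like factor induced by TGF-β, was at 6.87 and 6.67 on the sham arrays, 5.09 and 5.26 on the surviving arrays and 3.71 and 4.13 on the dying arrays. It fell by 1.60 in surviving neurons (adjusted p of 0.0477) and fell by 2.85 in dying neurons (0.00429). Plk2, a kinase of activity-dependent synapse weakening, passed as lower in dying neurons (0.0234), with 4.86 and 4.79 on the sham arrays and −2.49 and 2.39 on the dying arrays. Ptgs2, the inducible cyclooxygenase, also passed as lower (0.0357), with 3.41 and 3.37 on the sham arrays and −1.92 and 1.84 on the dying arrays. For both genes the spot on dying replicate 1 was not well above background, so that no exact size is given. Without that array the difference was −2.44 for Plk2, still called, and −1.55 for Ptgs2, where the call was lost. Rheb, the GTPase that switches on mTORC1, fell by 2.63 (0.00777), Sgk1, a kinase, fell by 2.46 (0.0113), Egr4 fell by 1.92 (0.0239) and Nr4a2, a relative of Nr4a1, fell by 1.47 (0.0341). Without sham replicate 1 the calls in dying neurons were lost for Klf10 (0.0508) and Rheb (0.0737), without either sham array for Plk2 (up to 0.103), and without either sham or surviving array for Ptgs2 (up to 0.134), and that of Klf10 in surviving neurons without any naïve, sham or surviving array (up to 0.273). In surviving minus dying, 0 of 41 were past the threshold, with a median of −0.12, or 0.087 without dying replicate 1 and 0.067 without surviving replicate 2. Those well above background on every injured array ran from Rheb at 1.57 and Egr4 at 1.54 to Cyr61 at −1.32 and Btg2 at −1.67, the last −0.95 without dying replicate 1. Sham minus naïve had 0 of 35 and a median of 0.54.

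Effector genes are those whose RNA neurons induce with activity after the transcription factors. Of 18 in the list, 17 were on the arrays, and in surviving neurons against sham 0 of 14 tested rose and 2 fell, with a median of −0.88, beside 5.78% and 10.5% of all probes and −0.43. In dying neurons 0 of 13 rose and 4 fell, beside 13.6% and 27.2% of all probes. There the list median was −0.82 beside −0.46, or −1.31 without sham replicate 1. Bdnf, a neurotrophin whose transcription depends on CREB and calcium, was at 2.24 and 2.47 on the naïve arrays, 3.02 and 2.92 on the sham arrays, 0.71 and 0.41 on the surviving arrays and −1.08 and −1.03 on the dying arrays. Uninjured, surviving and dying arrays did not overlap. Bdnf fell by 2.41 in surviving (SE 0.44, adjusted p of 0.0156) and fell by 4.03 in dying neurons (SE 0.44, 0.00165), the former call lost without either sham or either surviving array (up to 0.141).

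Pcsk1, a convertase of prohormones, fell by 2.02 in surviving (0.0443) and fell by 3.80 in dying neurons (0.00353). Nrn1, a membrane-anchored protein of neurite growth, fell by 3.09 in dying neurons (0.00395), and Homer1, a scaffold of the postsynaptic density, fell by 1.82 (0.0152). The call of Pcsk1 in surviving neurons was lost without either sham or either surviving array (up to 0.235), and that of Homer1 without either sham array (up to 0.101). Of 14 tested in surviving minus dying 0 passed, with a median of 0.10, from Scg2 at 2.40, which was 0.54 without dying replicate 1, and Nrn1 at 1.98 to Sst at −1.76, which was 0.15 without dying replicate 1, and Penk at −2.98. Sham minus naïve had 0 of 13 and a median of 0.50.

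Upstream kinases and transcription factors, 25 in the list and 23 on the arrays, carry the signals that switch the 9 genes on. In surviving neurons against sham 2 of 19 tested rose and 0 fell, with a median of −0.45, beside 5.78% and 10.5% of all probes and −0.43. In dying neurons 2 of 15 rose and 5 fell, with a median of −1.17, beside 13.6% and 27.2% of all probes and −0.46. Elk1, a ternary complex factor that binds beside SRF, was by the bound at least 2.49-fold higher in dying than in sham neurons, or 1.46-fold without dying replicate 2. In surviving neurons its bound of 1.31 rests on surviving replicate 1, without which it was 0.903 and gives no direction. There Mapk3, the kinase ERK1, was higher by at least 1.27-fold, or 1.19-fold without surviving replicate 2. These are the 2 counted as higher in surviving neurons, and since neither was well above background on a sham array, only bounds are given for them.

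In dying neurons Map2k1, the kinase MEK1, fell by 3.38 (adjusted p of 0.0144), or by 2.20 without dying replicate 1. Mapk8, the kinase JNK1, fell by 2.99 (0.00549). Rps6ka1, a kinase of the RSK family, rose by 1.69 (0.0334), or by 1.15 without dying replicate 1. For the first 2, without sham replicate 1 the calls were lost, with 0.0894 and 0.0574, that of Map2k1 also without sham replicate 2. Surviving minus dying had 0 of 19 past the threshold. The list median was 0.28, or 0.13 without surviving replicate 1, 0.66 without surviving replicate 2 and 0.16 without dying replicate 1. Map2k1 was at 1.91, or 0.73 without dying replicate 1. Elk1 was at −0.93, or −0.15 without dying replicate 2, and Rps6ka1 at −1.84. Sham minus naïve had 0 of 14 and a median of 0.59. For list genes not well above background on the sham arrays, such as Elk1, only the bounds above can give a direction. The measured differences of the 17 list and marker genes selected as past the threshold in surviving minus sham kept their sign in all 21 alternatives. With all 4 arrays required to be well above background 6 of them passed, and 1, 0, 1 and 1 passed without sham replicate 1, sham replicate 2, surviving replicate 1 and surviving replicate 2. Of 35 in dying minus sham, 26 passed with that filter, 10 passed without sham replicate 1, 17 without sham replicate 2, 26 without dying replicate 1 and 33 without dying replicate 2.

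**Figure D5:**
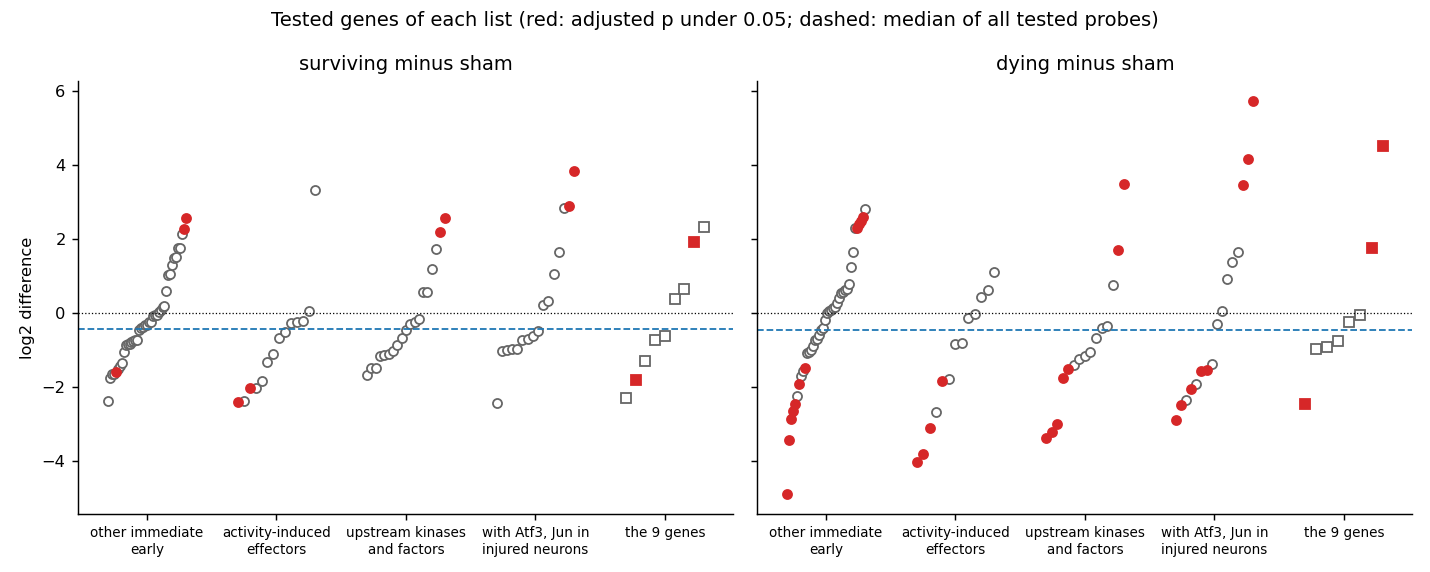
The log2 difference (y axis) of the genes tested in each of 4 lists and of the members tested (x axis), in surviving and in dying neurons against sham. Red points had an adjusted p under 0.05, and the dashed line is the median of all probes tested. The median of the effector genes was −0.88 in surviving and −0.82 in dying neurons, or −1.31 in the latter without sham replicate 1.

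Markers of other cells were read on the same arrays, beside 5.78% of all probes higher and 10.5% lower in surviving neurons and 13.6% and 27.2% in dying neurons. Interneuron markers, 8 of 8 on the arrays, had 0 of 8 higher and 1 lower in surviving and 2 lower in dying neurons against sham. Gad1, a synthase of GABA, passed as lower in surviving neurons (adjusted p of 0.0344), where the spot on replicate 2 was not well above background. In dying neurons, where it was not well above background, it was at least 3.74-fold lower than in sham, or 2.92-fold without dying replicate 2, and Pvalb, a calcium-binding protein, fell by 1.41 (0.0409). The call of Gad1 was lost without either sham or either surviving array in surviving neurons (up to 0.206), that of Pvalb without any sham or surviving array or dying replicate 1 (up to 0.196). Their summed signal ran from 479 on surviving replicate 2 to 2052 on dying replicate 1, with the highest probe signal from Npy on every array. Of 7 tested in surviving minus dying 0 passed, from Pvalb at 0.27, or −0.019 and −0.063 with quantile and RefSeq scaling, and Slc32a1 at −0.036, or 0.020 and 1.15 with 75th percentile scaling and normexp and 0.23 without dying replicate 1, to Sst and Vip at the values above.

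Astrocyte markers, 9 of 9 on the arrays, had 0 of 8 higher and 2 lower in surviving neurons, Gja1 with −3.23 (adjusted p of 0.0208) and Aldh1l1 with −1.70 (0.0466). In dying neurons 3 of 8 fell, Gja1 with −2.61 (0.0180), Slc1a2 with −2.29 (0.0124) and Glul with −2.01 (0.0140). In surviving neurons both calls were lost without either sham or either surviving array, that of Aldh1l1 also without either naïve array (up to 0.163 and 0.264), and in dying neurons all 3 without either sham array (up to 0.126, 0.107 and 0.112). Their sum was 559 to 1537, with the highest probe signal from Slc1a3, a glutamate transporter, on every array. In surviving minus dying 0 of 8 passed, from Glul at 1.37 and Slc1a2 at 1.30 to Slc1a3 at −0.68, or 0.81 with normexp and −0.086 without dying replicate 1, and Aldh1l1 at −1.66.

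Oligodendrocyte markers, 9 of 9 on the arrays, had 0 higher and 2 of 9 lower in surviving neurons, among them Mog with −2.99 (adjusted p of 0.0317), and 0 higher and 3 of 8 lower in dying neurons, among them Mobp with −1.61 (0.0485) and Cnp with −1.61 (0.0363). The call of Mog in surviving neurons was lost without either sham or either surviving array (up to 0.168), and in dying neurons those of Mobp and Cnp without sham, surviving and dying arrays (up to 0.213 and 0.161; for Cnp of the dying arrays only replicate 1). Their sum was 1706 and 1492 on the naïve arrays, 2412 and 2186 on the sham arrays, 427 and 482 on the surviving arrays and 1181 and 716 on the dying arrays, so that it was lower on all injured arrays, as Egr1 was. Olig1 had the highest probe signal on injured arrays, while Olig2 was not well above background on any uninjured array or on dying replicate 1. Their part in the Egr1 result was not tested. Surviving minus dying had 0 of 9 past the threshold, with Cnp at 0.38, or 0.16 without dying replicate 1, Olig1 at −1.44, or 0.12 with normexp, and Mog at −1.49, or −0.36 without dying replicate 1.

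Endothelial and pericyte markers, 9 of 9 on the arrays, had 1 of 7 higher in surviving neurons, Flt1, at least 1.34-fold, or 1.21-fold without surviving replicate 2, and 2 of 7 in dying neurons, Flt1, at least 2.38-fold, or 1.66-fold without dying replicate 1, and Vwf, with 1.94 (adjusted p of 0.0237), with 0 lower in both. Flt1 was not well above background on the sham arrays, so that only bounds are given. The call of Vwf was lost without either sham array or dying replicate 1 (up to 0.134). Their sum ran from 60.0 on surviving replicate 2 to 299 on dying replicate 1. Surviving minus dying had 0 of 7 past the threshold, from Rgs5 at 0.32, or −0.020 with RefSeq scaling and −0.52 without surviving replicate 2, and Cdh5 at −0.053, or 0.044 and 0.50 with quantile normalization and normexp and 0.0027 with 75th percentile scaling and 0.38 without dying replicate 1, to Pdgfrb at −1.33, or 0.23 with normexp and 0.13 without dying replicate 1, and Vwf at −1.90. Leukocyte markers, 8 of 8 on the arrays, were too dim in sham neurons for a count of calls. By the bound, S100a8 was at least 10.6-fold higher in dying than in sham neurons, or 7.56-fold without dying replicate 2. The bound of Cd8a, 1.68, rests on dying replicate 1, without which it was 0.860 and gives no direction. The sum of the 8 markers was 14.2 and 20.1 in dying neurons and 2.63 to 8.85 on the other arrays, and 0 of 8 were well above background on either sham array. S100a9 and S100a8 were at −2.38 and −3.23 for surviving minus dying, where 0 of 4 passed.

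Among pyramidal markers, Snap25 fell by 2.67 in surviving neurons too (adjusted p of 0.0419), the only 1 of 10 called there. In dying neurons Camk2b fell by 2.21 (0.0255) and Nrgn fell by 1.47 (0.0328). These calls were lost for Snap25 in surviving neurons without any naïve, sham or surviving array (up to 0.250), for Camk2b without either sham array or dying replicate 1 (up to 0.131) and for Nrgn without any sham or surviving array or dying replicate 1 (up to 0.179), and the call of Snap25 in dying neurons without sham replicate 1 (0.0594). Surviving minus dying had 0 of 10 past the threshold and a median of 1.24, or 0.46 without dying replicate 1. Those well above background on every injured array ran from Nefl at 3.19 and Camk2a at 2.04, which were 0.69 and 0.98 without that array, to Slc17a7 at 0.82, which was −0.42 without dying replicate 1, and Map2 at −0.15, which was 0.47 with normexp. Their part in the results of the 9 genes was not tested.

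The members also differ from each other in profile. After each profile was centred on its own mean, the root mean square distance over the 8 arrays was smallest between Jun and Arc, 0.42, among the 7 members well above background on all arrays, and largest between Egr1 and Atf3, 3.08. Among 6616 named probes well above background on all 8 arrays, those nearest to Fosb were Lrrc30 at 0.28, Crtc2 at 0.33 and Taar8c at 0.34, beside a median of 1.55 for all. Nearest to Atf3 were Adamts7 at 0.50, Nes at 0.54 and Myo1f at 0.59, beside a median of 2.56. Egr1 was closest to Spata7 at 0.11, Ddn at 0.12 and Sec61a2 at 0.13, beside a median of 0.79. These distances are a description, over arrays of which 4 lay on another slide.

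Of the remaining members, Jun was nearest to Vamp3 at 0.14, Dctn4 at 0.15 and Xrcc1 at 0.15, and Junb to Smyd1 at 0.25, Siva at 0.25 and Dyrk2 at 0.26. Arc was nearest to Gramd1a at 0.12, Fbxo23 at 0.14 and Pfdn5 at 0.14, and Nr4a1 to Dclre1a at 0.12, Cars at 0.19 and Hyal3 at 0.20. Medians for these 4 members ran from 0.66 for Arc to 0.86 for Junb.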

How the data were processed

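RNA of captured CA3 neurons was amplified, labelled and hybridized to 8 arrays, and the labels name either of 2 amplification kits without saying which pool had which. The methods of the paper name only 1 of them, MessageAMP II, and describe 2 rounds of amplification. According to the file headers the authors ran Agilent Feature Extraction 9.1.3.1, whose processed intensity of a spot has background subtracted and trends within the array removed, without normalization between arrays. The same files, deposited by the authors, hold mean spot intensity, local background intensity and marks of saturation, uniformity and signal well above background. The signal of the series table, also deposited by the authors, equals the processed signal divided by 1 constant per array with a floor, and served as an alternative. All 8 arrays and 0 columns of other samples were read, each with 45018 spots, of which 0 had the mark of saturation.

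Spots marked non-uniform were dropped and the remaining ones averaged per probe, each array divided by its median over probes besides controls, values under 0.01 set to 0.01 and the log2 taken. limma 3.58.1 in R 4.3.3 fitted the means of 4 groups to all 8 arrays, with 4 residual degrees of freedom and moderated spread. A probe was tested if 1 or both groups of a comparison had it well above background on both arrays, two-sided, with Benjamini-Hochberg adjustment in each comparison and a threshold of 0.05. The number of arrays, 2 per group, limits the precision. The labels do not state separate animals per pool, so p-values measure only the spread between these samples.

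Named are all probes of the 9 genes and, from each list, genes past the threshold (at most 4 per comparison, by size) and the 2 highest and 2 lowest in surviving minus dying among those well above background on all injured arrays, except for 2 genes that are not reported here. Likeness used the 3 named genes with the smallest root mean square distance. Fosl2, Egr3 and other genes named in 1 comparison are also given in others, and Gadd45g, Cebpd, Sgk1, Egr4, Nr4a2, Rps6ka1, Asns, Gap43, Chac1 and Ddit3 beyond the 4 by size, without alternatives, which was chosen after their values were seen. So were list medians, list genes and bounds with each array left out, from group means. Members and lists were chosen with earlier results of these data known. Of 174 list genes, 167 were on the arrays, 11 through the RefSeq accession alone.

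Alternatives were 3 other scalings (75th percentile, quantile, median of RefSeq probes), the normexp background correction with an offset of 50, the series table, non-uniform spots kept, other filters, a fit of only the groups compared, the replicate block, trended and robust moderation, array weights and leaving out each array. The median of repeated spots and a crossed replicate block were chosen after seeing the data. Slide as a block could not be fitted in the comparisons with sham, since naïve and sham arrays lay on 1 slide and surviving and dying arrays on another. Promoters of RefSeq genes in GRCr8 were searched with Python 3.11.15, numpy 2.4.6 and pandas 2.3.3, and figures drawn with matplotlib 3.10.9.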

Additional observations from a re-analysis of the deposited data

How the results depend on the processing

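Over all alternatives, differences of the 9 genes kept their direction and side of the threshold in 693 cases, passed it in 9, lost it in 26 and changed sign in 37, and those of named list genes did so in 1629, 20, 295 and 27. Fosb, Egr1 and Atf3 kept their direction against sham in every alternative. Signal over background limits Fos and Egr2, which were dim on several arrays.

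The count of members past the threshold in surviving minus sham, 2, was 1 with RefSeq scaling, with non-uniform spots kept, with probes well above background on all 4 arrays and with no filter, 0 with normexp and with the replicate block, 3 with the series table and with trended and robust moderation, 4 in a fit of only the groups compared and 5 with array weights. In dying minus sham, 3 became 0 with normexp, 2 in a fit of only the groups compared and 4 with quantile normalization, where Jun was added. Leaving out each array gave 0 to 2 and 1 to 3. The spread of a lone array is then taken from the remaining groups. With the replicate block 2702 probes passed in surviving minus sham and 9265 in dying minus sham. Over 15254 probes, deviations of same-numbered surviving and dying arrays had a correlation of −0.19, a weak tendency to opposite directions. The numbers of the dying arrays were therefore also crossed, chosen after seeing the data. Then 0 probes and 0 members passed in surviving minus dying, as with the labelled numbers. For these changes and those below the cause was not tested.

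Signs changed as follows. With 75th percentile scaling, surviving minus sham was 0.18 for Jun and 0.065 for Arc, dying minus sham 0.24 for Fos, 0.48 for Jun and 0.68 for Junb, sham minus naïve −0.12 for Nr4a1, and surviving minus dying 0.020 for Slc32a1 and 0.0027 for Cdh5. With quantile normalization, surviving minus sham was 0.31 for Jun and 0.23 for Arc, dying minus sham 0.98 for Jun, 0.99 for Junb, 0.26 for Arc and 0.34 for Nr4a1, sham minus naïve −0.0039 for Arc and −0.27 for Nr4a1, and surviving minus dying −0.034 for Arc, −0.019 for Pvalb and 0.044 for Cdh5. With RefSeq scaling, surviving minus dying was −0.18 for Fosb, −0.083 for Arc, −0.063 for Pvalb and −0.020 for Rgs5, and dying minus sham 0.14 for Jun and 0.34 for Junb. Signs of Fos here and below are those of measured values, in part under background in sham and dying neurons, and give no direction.

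With normexp, surviving minus dying was −0.10 for Fos, 1.13 for Jun, 1.26 for Nr4a1, 0.47 for Map2, 1.15 for Slc32a1, 1.11 for Lyz2, 0.21 for Csf1r, 0.81 for Slc1a3, 0.12 for Olig1, 0.50 for Cdh5 and 0.23 for Pdgfrb, and surviving minus sham −0.33 for Fos, 0.45 for Jun and 0.40 for Arc. Leaving out each array gave, in surviving minus dying, −0.13 to 0.45 for Fosb, −0.22 to 1.07 for Junb, −0.015 to 0.52 for Arc, −0.82 to 0.077 for Nr4a1, −0.30 to 0.23 for Slc32a1, −0.48 to 0.38 for Cdh5, −0.78 to 0.38 for Csf1r, −0.52 to 1.15 for Rgs5, −3.67 to 0.15 for Sst, −0.42 to 2.06 for Slc17a7, −0.39 to 0.097 for Map2, −2.79 to 0.13 for Pdgfrb and −0.41 to 0.12 for Lyz2. In surviving minus sham it gave −0.23 to 1.55 for Fos and −0.26 to 1.02 for Junb, in dying minus sham −1.37 to 0.41 for Fos, −0.58 to 0.078 for Jun and −1.55 to 0.062 for Egr2, and in sham minus naïve −0.11 to 1.68 for Egr2 and −0.16 to 1.87 for Atf3. Slide as a block could not be fitted and the mean over probes of a gene was not run, since each gene had 1 probe.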
